A study of Mus musculus with 8 samples.

Results

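Skeletal muscle myosin chains were followed in E18.5 mouse embryos, from which the whole skin was taken. The members are the probe sets whose platform annotation gives a single symbol among 10 genes: the heavy chains Myh1, Myh2, Myh3, Myh4, Myh7 and Myh8 and the light chains Myl1, Myl3, Myl4 and Mylpf. These 10 genes, of the 13675 named by a single symbol on the arrays, were read by 16 of the 24965 probe sets, 15 of them A-chip and 1 B-chip probe sets. RNA came from embryos null for the transcription factor p63, which stratified epithelia depend on, and from wild-type embryos, all from matings of p63 heterozygous mice, with 2 embryos of each genotype on each chip and 8 arrays in all. The labels name no allele or strain and do not say which null and wild-type embryos were littermates. They also do not say whether both chips received RNA of the same embryos. The B-chip values are therefore not counted as coming from further embryos. The A and B chips are single-colour Affymetrix arrays that carry different probe sets, so each was analysed alone.

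Skeletal muscle myosin is built from a pair of heavy chains, the motors of the thick filament, each of which carries an essential and a regulatory light chain. The heavy chain isoforms follow one another in development. Embryonic Myh3 and perinatal Myh8 dominate in fetal muscle, slow Myh7 marks slow fibres and the heart ventricle, and the adult fast forms Myh2 (type IIa), Myh1 (type IIx) and Myh4 (type IIb) replace the developmental forms after birth. Among the light chains, Myl4 is the essential chain of embryonic muscle and the atrium, Myl3 that of slow fibres and the ventricle, Myl1 that of fast fibres, and Mylpf is the fast regulatory chain. Mouse skin contains a thin sheet of skeletal muscle, the panniculus carnosus.

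Signals are MAS5 values on a linear scale. For the tests they were rescaled between arrays and log-transformed after adding an offset (12.9 for the A chip, 54.3 for the B chip). All log2 fold changes below are null over wild type on that scale, so changes of weak signals are understated. Limma was run on probe sets whose average over the 4 arrays exceeded the 40th percentile, a signal of about 54.0 (A chip) and 167 (B chip). Every adjusted p comes from that limma fit, with Benjamini-Hochberg adjustment over all probe sets tested on the chip. A probe set name ending in f_at marks probes shared with related sequences and one ending in r_at marks relaxed probe selection, so signals of these probe sets may include related myosins.

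On the A chip, 11 of the 15 member probe sets, covering 9 of the 10 genes, were strong enough to be tested. All 11 were higher in null skin at an adjusted p under 0.05 and 0 were lower, where 22.1% of all 7453 tested probe sets were higher and 44.3% were called in either direction. Their log2 fold changes ran from 0.47 to 1.82 with a median of 1.32, against a median of 0.02 over all tested probe sets. Of the 11, Myl3 reached the level for testing through the null arrays alone, as its wild-type mean was below it. The count fell to 7 without wild-type replicate 2. In all 11 tested members both null arrays lay above both wild-type arrays, where 37.8% of all tested probe sets had both null arrays on top. Over all 15 A-chip members, tested or not, both null arrays were on top in 13 and the groups overlapped in 2. No share over untested probe sets was taken beside that count.

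**Figure D1:**
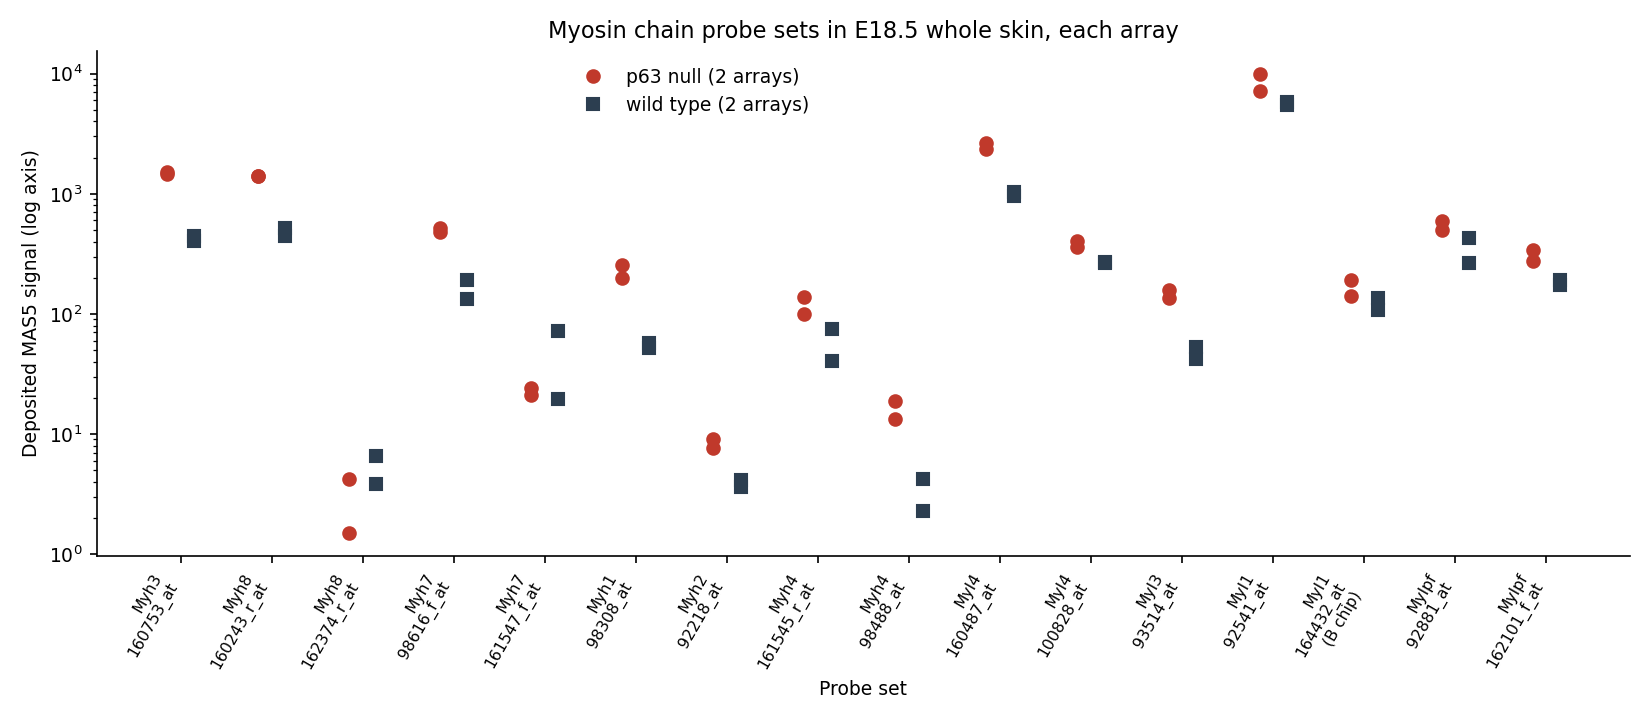
Deposited MAS5 signal on a log axis (vertical) of each of the 16 member probe sets (horizontal), with red circles for the 2 null arrays and dark squares for the 2 wild-type arrays. The null arrays lie above the wild-type arrays except for the second probe sets of Myh8 and Myh7, which read at most 71.9.

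Both developmental heavy chains rose. Embryonic Myh3 (probe set 160753_at) read 1473.4 and 1526.1 in null skin, against 405.3 and 444.0 in wild-type skin. The groups stood far apart relative to the spread within either. The log2 fold change of Myh3 was 1.79 (SE 0.12, adjusted p = 5.35e-06), and 1.21% of the tested probe sets had a larger one. Perinatal Myh8 (160243_r_at) read 1416.3 and 1394.5 in null skin, against 447.2 and 514.1 in wild-type skin, again with no overlap. Its log2 fold change was 1.53 (SE 0.12, adjusted p = 1.71e-05). A second Myh8 probe set, 162374_r_at, read 1.5 and 4.2 in null skin and 3.8 and 6.6 in wild-type skin, near the bottom of the chip, and was not tested.

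Slow Myh7 also rose. Its probe set 98616_f_at read 483.1 and 518.0 in null skin, against 189.7 and 133.7 in wild-type skin, so that the log2 fold change was 1.57 (SE 0.17, adjusted p = 0.000130). The wild-type arrays were further apart than the null arrays, yet both lay below them. The other Myh7 probe set, 161547_f_at, read 24.0 and 21.1 in null skin and 19.5 and 71.9 in wild-type skin. There the groups overlapped and the value of 71.9 in 1 wild-type array set the difference, so it gives no direction for Myh7. Probes of Myh7 can bind the near-identical cardiac heavy chain Myh6, whose own probe set read 13 and 31 in null skin and 2.2 and 2.3 in wild-type skin and was too low to be tested.

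The adult fast heavy chains were measured less well. Myh1 (98308_at) read 256.2 and 198.7 in null skin, against 52.3 and 57.4 in wild-type skin. Wild type thus stood at the level for testing and null skin well above it. The log2 fold change of 1.82 (SE 0.20, adjusted p = 0.000108) was the highest of the 11 tested member probe sets, and the deposited signals differed 4.15-fold. Myh4, the type IIb chain, had a probe set, 161545_r_at, with 99.6 and 137.9 in null skin and 74.8 and 40.2 in wild-type skin. Its log2 fold change was 0.93 (SE 0.28, adjusted p = 0.0223), and leaving out wild-type replicate 2 (0.57, adjusted p = 0.143) or null replicate 2 (0.72, adjusted p = 0.0906), or dropping the filter (adjusted p = 0.0778), ended the call. The second Myh4 probe set, 98488_at, was weak, with 13.4 and 18.8 in null skin against 4.2 and 2.3 in wild-type skin. It was not tested with the filter, and without it limma put the log2 fold change at 0.84 (SE 0.18, adjusted p = 0.0207). Myh2, the type IIa chain (92218_at), read 9.1 and 7.7 in null skin and 3.6 and 4.1 in wild-type skin. Both null arrays were above both wild-type arrays, but without a filter the log2 fold change was 0.35 (SE 0.15, adjusted p = 0.143 by limma). MAS5 presence calls were not used here, so none of these weak signals can be called present or absent.

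Myh3, Myh2, Myh1, Myh4 and Myh8 are neighbours in that order on mouse chromosome 11, with Myh13 beyond them, while Myh7 lies apart on chromosome 14. The 250 bases before each start, from the RefSeq promoter table of GRCm38.p6, are shown because 5 of these 6 heavy chain genes lie in that cluster and those with a tested probe set all rose. Capitals mark the longest run shared by Myh1, Myh2, Myh4 and Myh8 (14 bases) and every TATAAA on the strand shown, and the Myh8 start in this table is its only entry.
Myh8: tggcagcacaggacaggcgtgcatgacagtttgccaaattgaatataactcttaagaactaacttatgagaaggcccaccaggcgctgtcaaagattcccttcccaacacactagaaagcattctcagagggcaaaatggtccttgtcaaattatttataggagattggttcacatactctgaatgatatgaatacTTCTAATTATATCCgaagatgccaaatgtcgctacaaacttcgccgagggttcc
Myh1: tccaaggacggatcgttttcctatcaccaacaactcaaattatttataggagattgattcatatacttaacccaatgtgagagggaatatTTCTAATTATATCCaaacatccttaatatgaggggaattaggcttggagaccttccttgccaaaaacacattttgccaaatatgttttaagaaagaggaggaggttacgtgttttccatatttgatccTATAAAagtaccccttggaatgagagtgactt
Myh2: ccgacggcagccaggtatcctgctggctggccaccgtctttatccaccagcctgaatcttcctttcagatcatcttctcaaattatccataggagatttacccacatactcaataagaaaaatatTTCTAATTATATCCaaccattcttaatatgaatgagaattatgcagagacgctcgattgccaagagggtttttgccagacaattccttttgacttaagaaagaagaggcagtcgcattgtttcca
Myh4: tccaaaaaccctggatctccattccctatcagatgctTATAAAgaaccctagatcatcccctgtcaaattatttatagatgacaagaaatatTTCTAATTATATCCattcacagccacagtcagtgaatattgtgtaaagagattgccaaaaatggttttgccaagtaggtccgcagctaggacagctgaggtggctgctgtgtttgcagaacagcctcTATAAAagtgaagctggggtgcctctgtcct
Myh3: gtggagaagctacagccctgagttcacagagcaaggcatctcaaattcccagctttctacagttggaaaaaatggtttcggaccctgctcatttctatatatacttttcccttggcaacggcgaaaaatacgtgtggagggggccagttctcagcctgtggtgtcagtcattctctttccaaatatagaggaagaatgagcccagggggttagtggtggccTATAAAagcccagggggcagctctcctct
Myh7: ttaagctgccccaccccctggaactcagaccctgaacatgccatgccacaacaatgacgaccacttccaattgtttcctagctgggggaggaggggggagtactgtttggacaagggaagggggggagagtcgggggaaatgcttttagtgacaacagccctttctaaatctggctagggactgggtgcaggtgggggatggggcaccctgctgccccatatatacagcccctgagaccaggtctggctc
The windows are chr11:67276874-67277123 for Myh8, chr11:67199852-67200101 for Myh1, chr11:67170777-67171026 for Myh2, chr11:67237562-67237811 for Myh4 and chr11:67078050-67078299 for Myh3, all on the plus strand, and chr14:54994550-54994799 on the minus strand for Myh7, for which the further downstream of 2 entries was taken.

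The shared run, TTCTAATTATATCC, was found by comparing these 4 sequences, so its presence in them is no test. It begins 54 bases before the start in Myh8, 160 in Myh1, 125 in Myh2 and 158 in Myh4. Searched on both strands in all 32851 windows of 250 bases in the table, it occurred in these 4 and no other (0.0122%). With Myh3 added the longest run common to all 5 was 7 bases, and with Myh7 in its place 6. A MEF2 motif, named for the myocyte factors that bind it, was matched by the 10 bases TTATTTATAG in Myh8, Myh1 and Myh4, and 2.92% of all windows held a match of that motif. These 10 bases overlap a TATAAA read on the opposite strand in the same 3 windows. A TATAAA on the strand shown began 29, 32 and 31 bases before the start in Myh3, Myh1 and Myh4 (Myh4 has a second one further upstream), and 12.4% of all windows held one on either strand. Myh3 and Myh7, which lack the 14-base run in these windows, rose, and Myh2, which holds it, was too weak to be tested (values above). Any part of the run in these changes was not tested.

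Read by the strongest probe set of each gene, the light chains divided by size of change. Embryonic Myl4 (160487_at) read 2624.6 and 2378.6 in null skin, against 962.8 and 1029.1 in wild-type skin, so that the log2 fold change was 1.32 (SE 0.11, adjusted p = 3.07e-05). A second Myl4 probe set, 100828_at, read 357.1 and 401.3 in null skin, against 266.8 and 271.8 in wild-type skin. It rose less (log2 fold change 0.47, SE 0.14, adjusted p = 0.0206), and it no longer passed when any 1 of these was left out: null replicate 2 (adjusted p = 0.0806), wild-type replicate 1 (0.0770) or wild-type replicate 2 (0.0760). The probe sets of Myl4 thus disagree on the size of the change but not on its direction. The 0.47 of the second lay below the changes of all tested Myl1 and Mylpf probe sets given next. The division therefore depends on the Myl4 probe set. Slow Myl3 (93514_at) read 135.7 and 157.6 in null skin, against 52.7 and 42.2 in wild-type skin (log2 fold change 1.40, SE 0.21, adjusted p = 0.000630).

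Read by its strongest probe set, each fast light chain rose less than the other tested genes. Myl1 (92541_at) read 7162.6 and 9996.2 in null skin and 5533.7 and 5771.3 in wild-type skin. The null arrays were further apart from each other than the lower of them was from wild type. Its log2 fold change was 0.58 (SE 0.16, adjusted p = 0.0164). Leaving out wild-type replicate 1 (adjusted p = 0.133) or wild-type replicate 2 (0.117), or dropping the filter (0.0680), ended that call. The highest signal of any probe set was 9878.1 and 12895.7 on the null arrays and 10332.5 and 9811.0 on the wild-type arrays, so Myl1 was read near the top of the range, and the part of this in its small change was not tested. Mylpf (92881_at) read 500.0 and 597.5 in null skin, against 429.7 and 267.2 in wild-type skin (log2 fold change 0.67, SE 0.21, adjusted p = 0.0262). It no longer passed when wild-type replicate 2 (0.34, adjusted p = 0.195) or null replicate 2 (adjusted p = 0.0608) was left out, with no filter (0.0795) or with no variance trend (0.0570). The second Mylpf probe set, 162101_f_at, read 276.0 and 342.5 in null skin and 172.3 and 192.4 in wild-type skin, and its rise of 0.72 on the log2 scale (SE 0.16, adjusted p = 0.00646) stayed called under every alternative run. On the B chip, where 14.5% of 7446 tested probe sets were higher in null skin, the only member was a weak Myl1 probe set, 164432_at. It read 191.3 and 141.6 in null skin and 108.3 and 135.9 in wild-type skin, lay below the level for testing, and without the filter changed by 0.32 on the log2 scale (adjusted p = 0.509 by limma).

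**Figure D2:**
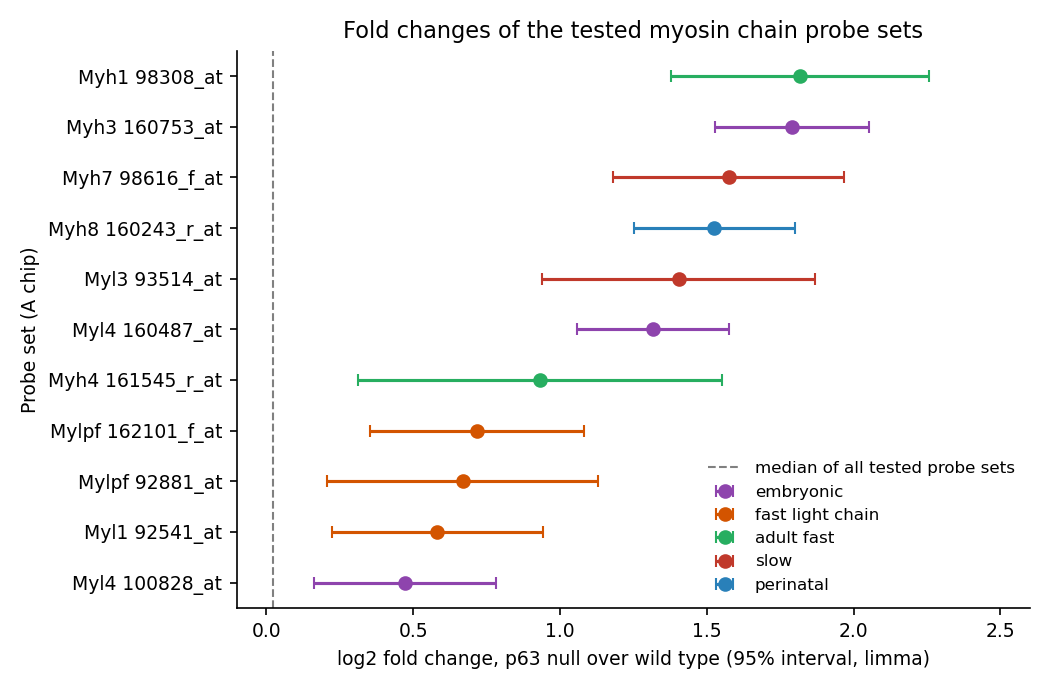
Log2 fold change, null over wild type, of the 11 tested member probe sets of the A chip (points) with 95% limma intervals (bars), coloured by isoform class, and the median of all tested probe sets (dashed line, 0.02). Intervals of Myh1, Myh3, Myh7 and Myh8 begin at 1.18 or higher and those of the Myl1 and Mylpf probe sets end at 1.13 or lower.

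By 95% interval, the log2 fold change lay between 1.53 and 2.05 for Myh3, 1.25 and 1.80 for Myh8, 1.18 and 1.97 for Myh7, and 1.38 and 2.26 for Myh1. The intervals of these 4 heavy chains overlap one another. For Myl1 the interval was 0.22 to 0.94, and for the Mylpf probe sets 0.21 to 1.13 and 0.35 to 1.08, all below those of the 4 heavy chains. The interval of Myh4, 0.31 to 1.55, spans both ranges. Differences between light and heavy chains were not tested. As a description, the mean log2 fold change was 1.55 for the embryonic pair Myh3 and Myl4, 1.53 for perinatal Myh8, 1.49 for the slow pair Myh7 and Myl3, 1.37 for the adult fast heavy chains Myh1 and Myh4, and 0.62 for the fast light chains Myl1 and Mylpf. With the mean over the tested probe sets of each gene, added after seeing the data, the embryonic value was 1.34, below the slow and adult fast ones, so the order of the first 4 classes depends on the Myl4 probe set, and the fast light chains had 0.64.

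To ask whether the isoform mix differed, the log2 difference between a pair of genes was taken within each array of the A chip and compared between genotypes, for 10 pairs of heavy chains and for Myl4 and Myl3 against Myl1. Levels of different probe sets are not comparable, so only the change of each difference between genotypes is read. With 2 arrays a group the exact two-sided permutation test cannot give a p below 0.333, and no pair could pass (smallest p 0.333, adjusted 0.571 over the 12 pairs). Embryonic Myh3 gained 0.26 on perinatal Myh8, with values of 0.06 and 0.13 in null skin and -0.14 and -0.21 in wild-type skin, which do not overlap. Embryonic Myh3 against adult fast Myh1 changed by -0.03, with 2.47 and 2.86 in null skin around 2.68 and 2.70 in wild-type skin. Slow Myh7 against Myh3 and Myh8 overlapped between genotypes as well, Myh3 minus Myh7 changing by 0.22 and Myh8 minus Myh7 by -0.05. Myh8 lost 0.29 to Myh1 (2.41 and 2.73 in null skin, 2.82 and 2.91 in wild-type skin, without overlap), but with the offset at the 40th percentile the change was 0.08, so its direction depends on the offset.

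**Figure D3:**
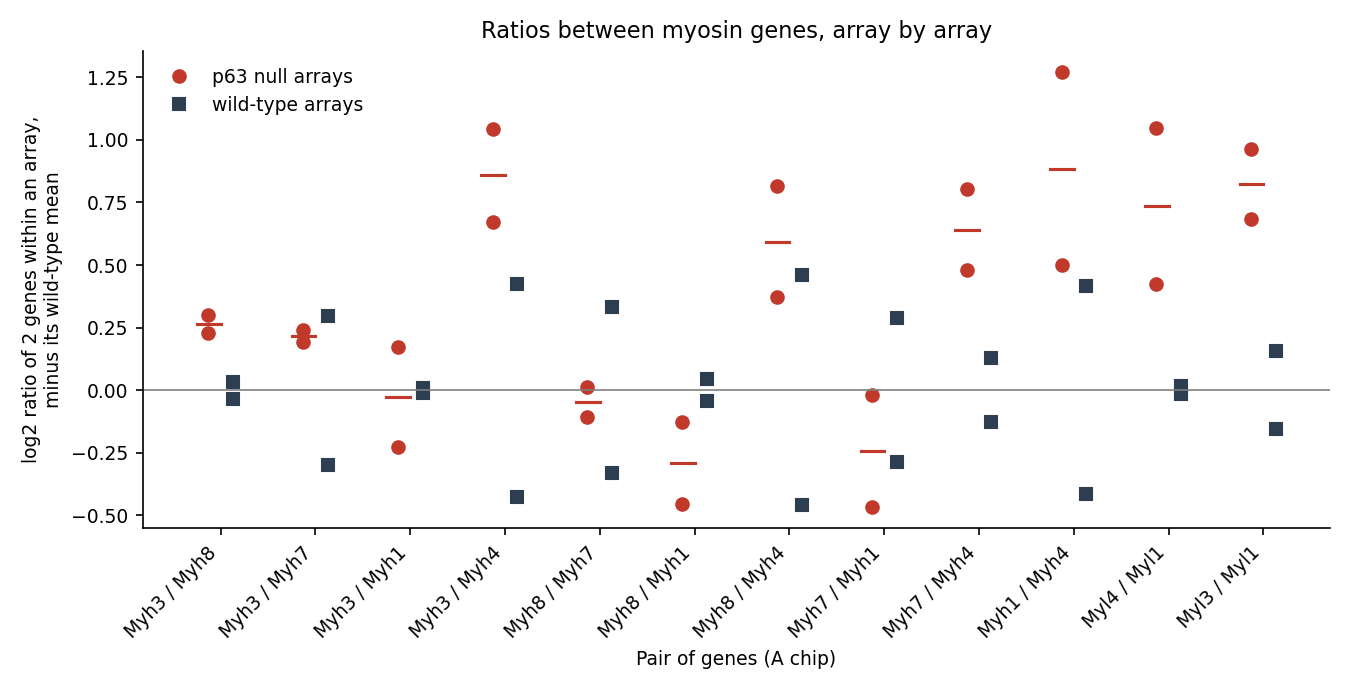
Log2 ratio of 2 genes within each A-chip array, minus the wild-type mean of that ratio (vertical), for 12 pairs (horizontal), with red circles for the null arrays, red lines for their mean and dark squares for the wild-type arrays. Pairs among Myh3, Myh8, Myh7 and Myh1 lie at most 0.29 from zero on average, while Myh3, Myh7 and Myh1 against Myh4, and Myl4 and Myl3 against Myl1, have null arrays above wild type.

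The wider changes involved Myh4 and Myl1, each the gene with the smaller rise as read here. Myh4 entered the pairs through 161545_r_at alone, whose deposited signals differed 2.07-fold. Those of its untested probe set 98488_at, near the bottom of the chip, differed 4.95-fold. How far Myh4 lagged the other heavy chains thus depends on its probe set. Myh3 gained 0.86, Myh7 0.64 and Myh1 0.88 on Myh4 without overlap, and Myh8 gained 0.59 with overlap. Without wild-type replicate 1 the gains on Myh4 were 0.43 for Myh3, 0.47 for Myh1 and 0.13 for Myh8, and without wild-type replicate 2 they were 1.29, 1.29 and 1.06. Myh8 gained 0.37 without null replicate 1, and the gain of Myh1 on Myh4 was 0.50 without null replicate 1. The embryonic light chain Myl4 gained 0.74 on Myl1 (-1.44 and -2.07 in null skin, -2.51 and -2.47 in wild-type skin). With the mean over both Myl4 probe sets that gain was 0.31, and it was 0.42 without null replicate 1. Slow Myl3 gained 0.82 on Myl1 (-5.59 and -5.88 in null skin, -6.40 and -6.71 in wild-type skin), and 0.42 with the offset at the 40th percentile. In all, 7 of the 12 pairs, which share genes, did not overlap between genotypes, where 75.2% of all pairs of tested A-chip genes did not.

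Most tested genes on a list of thick filament partners and myosin folding, not all of them thick filament proteins, rose beside the myosins. Of 6 tested genes of the thick filament and myosin folding list on the A chip 4 rose and 1 fell, with a median log2 fold change of 1.25. Of all tested A-chip probe sets 22.1% were higher in null skin and 44.3% were called in either direction. On the B chip 4 of 5 rose and 0 fell, with a median of 1.52, where 14.5% of tested probe sets were higher and 29.4% were called in either direction. Smyd1, a methyltransferase of striated muscle needed for thick filament assembly, read 248.3 and 244.3 in null skin and 56.5 and 60.6 in wild-type skin (log2 fold change 1.86, adjusted p = 4.44e-05). The M-line proteins Myom2 and Myom1, which crosslink thick filaments, rose by 1.36 and 1.34 on the log2 scale. On the B chip the giant spring protein Ttn, tested through the null arrays alone, rose by 1.76 (adjusted p = 0.00419), the caveolar protein Murc by 1.72 (adjusted p = 0.000508) and the myosin-binding protein Mybpc1 by 1.52 (adjusted p = 0.000106). The 1 gene that fell, named after its values were seen, was Hsp90aa1, a chaperone that helps to fold the myosin head but is made in most cells, with 1590.2 and 1297.4 in null skin and 2549.6 and 2482.6 in wild-type skin (-0.80, adjusted p = 0.000979).

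Of the thin filament and Z disc genes, 15 of 16 tested on the A chip rose and 0 fell (median 1.21), where 22.1% of tested probe sets were higher. On the B chip 3 of 4 rose and 0 fell (median 1.48), where 14.5% were higher. Tpm1, named after its values were seen, did not pass on either chip. On the A chip it read 418.6 and 478.7 in null skin and 543.9 and 617.2 in wild-type skin (-0.36, adjusted p = 0.0521). On the B chip its change was 1.15 (adjusted p = 0.110). In some settings, among them the filter at the 60th percentile and a replicate block, 1 A-chip gene was called lower. Actn2, among those that rose on the A chip, reached the level for testing through the null arrays alone. It did not pass with no filter (adjusted p = 0.0875), and its change of 0.84 became 0.49 without wild-type replicate 1. The largest on the A chip were the Z disc protein Ldb3 (2.01, adjusted p = 1.86e-05), slow troponin T Tnnt1 (1.77, adjusted p = 4.40e-06) and slow troponin I Tnni1 (1.51, adjusted p = 1.28e-05). The B-chip genes that rose all encode Z disc proteins, namely Myot (1.67, adjusted p = 0.00106), Ldb3 again (1.52, adjusted p = 0.000450) and Myoz2 (1.44, adjusted p = 0.000177). Acta1, the skeletal actin, chosen after its values were seen because it too read near the top of the range, read 7834.9 and 9597.5 in null skin and 5731.8 and 5550.7 in wild-type skin (log2 fold change 0.62, adjusted p = 0.00494). Without wild-type replicate 1 or 2 Acta1 did not pass (adjusted p = 0.0700 and 0.109). Among the myogenic factors 4 of 7 tested on the A chip rose and 0 fell, with a median of 0.34. They were led by Myf6, Myog and Myod1, transcription factors of the muscle lineage, at 1.31, 1.19 and 1.11 (adjusted p = 0.00705, 0.0104 and 0.000366). The fourth, Mef2d (0.34, adjusted p = 0.0335), did not pass without null replicate 1 (adjusted p = 0.0521), wild-type replicate 1 (0.138) or wild-type replicate 2 (0.204), with median centring (0.0626), with no filter (0.0521) or with no variance trend (0.0867), which left 3 called. On the B chip Mef2d rose by 0.78 (adjusted p = 0.0132), Mef2a fell by 0.49 (adjusted p = 0.0467), and 1 further gene did not pass. Without wild-type replicate 2, neither Mef2d (0.67) nor Mef2a (-0.34) passed there. Mef2a also failed without wild-type replicate 1 (-0.63) or null replicate 2 (-0.40). It did not pass with median centring (adjusted p = 0.0577), no filter (0.0760) or no variance trend (0.0897).

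**Figure D4:**
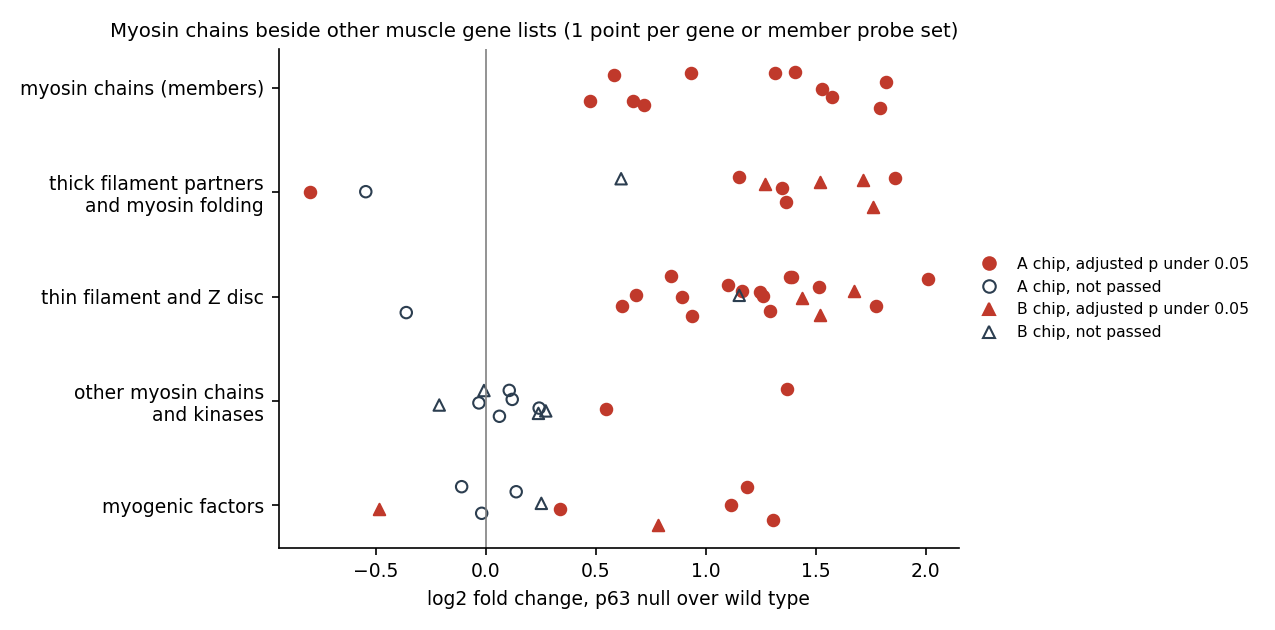
Log2 fold change, null over wild type (horizontal), of the tested member probe sets and of the tested genes of 4 related lists (rows), with circles for the A chip, triangles for the B chip, filled symbols for adjusted p under 0.05 and open ones for the rest. Members and sarcomere genes lie mostly above 0.5, and of the other myosin chains and kinases Myl6b (1.37) and Myl9 (0.55) passed on the A chip.

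Among myosin chains of other cells and myosin kinases, 2 of 7 tested on the A chip rose and 0 fell (median 0.12), a share near the 22.1% of all tested probe sets, and the 4 on the B chip had adjusted p-values of 0.168 or more. Those that rose were Myl6b (1.37, adjusted p = 0.000985), an essential chain found in slow muscle and in non-muscle cells, and Myl9 (0.55, adjusted p = 0.0480), a regulatory chain of smooth muscle. Myl9 did not pass without wild-type replicate 2 (0.32) or null replicate 2 (0.35), with no filter (adjusted p = 0.110) or with no variance trend (0.0769). Quantile normalization (0.0551) and the offset at the 5th percentile (0.0501) ended its call too. The non-muscle heavy chain Myh9, named with the next 2 genes after their values were seen, read 1964.4 and 2030.2 in null skin and 1845.7 and 1864.7 in wild-type skin (0.11, adjusted p = 0.453). The A-chip value of the smooth muscle heavy chain Myh11 was 0.12 on the log2 scale (adjusted p = 0.575). Myl2, the regulatory light chain of slow fibres and the ventricle, read 89.2 and 38.2 in null skin and 9.6 and 4.9 in wild-type skin, without overlap, but was too weak to be tested.

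The lists of markers place these values in the tissue, but they repeat tested genes counted above. These are Acta1, Tnnt3, Tnni2, Actn3 and Myog (skeletal muscle), Des and Myh11 (smooth muscle) and Myod1 (myoblasts). Of all tested A-chip probe sets 22.1% were higher in null skin and 44.3% were called in either direction. All 8 skeletal muscle markers rose, with a summed signal of 15510 to 17263 in null skin and 8268 to 8301 in wild-type skin. Acta1, whose limits are given above, alone supplied 7834.9 and 9597.5 of this sum in null skin and 5731.8 and 5550.7 in wild-type skin. Of the 7 cardiac markers Nppa, an atrial peptide, and Tnnt2, a troponin that fetal skeletal muscle also makes, rose, Nppa being tested through the null arrays alone, and the other 5 were too weak to be tested on the A chip. Myh6, given above, was higher in null skin. Nppb read 53.4 and 46.5 in null skin and 48.6 and 34 in wild-type skin, and Tnni3 read 30 and 22.3 in null skin and 27.4 and 25.2 in wild-type skin, both with overlap. Ryr2 and Myl7 read 2.4 and 1.8, and 8.9 and 24.3, in null skin, against 6.2 and 9.6, and 54.7 and 75.6, in wild-type skin. Smooth muscle markers rose in 4 of 5 tested cases (3 without null replicate 2 or wild-type replicate 2), with sums of 2668 to 3036 in null skin and 1669 to 1721 in wild-type skin. The smooth muscle marker that did not pass was Myh11, which did not pass on the B chip either (0.24, adjusted p = 0.436). All 3 tested markers of myoblasts and satellite cells rose, Cdh15 being tested through the null arrays alone, with sums of 719 to 744 in null skin and 279 to 332 in wild-type skin. Adipocyte markers rose in 4 of 5 cases, with Ucp1 tested through the null arrays alone (9958 to 10949 in null skin, 3792 to 4186 in wild-type skin). All 7 tested keratinocyte markers of the A chip fell, with sums of 3875 to 4498 in null skin and 33113 to 34409 in wild-type skin. Whole skin was sampled, so more muscle cells and more myosin RNA per cell cannot be told apart, and neither can a gain of muscle and a loss of epidermal RNA, because each array is scaled to the same trimmed mean.

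The arrays of a genotype resembled each other (A chip, across tested probe sets, which are not independent: r = 0.980 for the null pair and 0.984 for the wild-type pair). The beta-actin ratio of 3' to 5' signal, which falls as RNA is better preserved, was 1.27 in both null A-chip arrays and 1.63 and 1.69 in wild type, and the Gapdh ratio was 1.25 and 1.45 in null skin and 1.47 and 2.46 in wild type, highest in wild-type replicate 2. Without that array 7 member probe sets were called. The part of RNA quality in the myosin differences was not tested. Null replicate 2 of the A chip read 6420 for the CreX hybridisation spike, against 3334 to 3837 in the other arrays, and without it 8 of the 11 member probe sets were called.

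The A-chip probe sets whose 4-array pattern was nearest to the median tested member, by Euclidean distance of log2 values centred on wild type, were those of Myoz1 (distance 0.0415), Lama4 (0.0617), H2-K1 (0.0657), Srpk3 (0.0661) and H2-D1 (0.0667). Myoz1 encodes a Z disc protein and Srpk3 a muscle kinase, while Lama4 is a laminin chain of blood vessels and other basement membranes and H2-K1 and H2-D1 are class I antigen-presenting molecules whose f_at probe sets can bind each other's transcripts. Myoz1 read 1769.1 and 1714.3 in null skin and 712.9 and 739.2 in wild-type skin. Over 4 arrays in 2 groups, likeness of this kind says little more than that the fold change is similar.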

How the data were processed

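The deposited values are intensities per probe set on a linear scale, which MAS5 produced, per the submitters' processing notes. Its version and any genome build are not stated there. RNA was extracted with TriZol and cleaned on RNeasy columns per the labels' protocols. Trimmed means of the A-chip arrays were 250.1 to 250.2 and those of the B-chip arrays 500.1, so the values had been scaled when deposited. The number of arrays limits the precision. Genotype and replicate number came from sample titles. No source says that same-numbered arrays pair, and their deviations correlated at 0.04 (A chip) and -0.05 (B chip), so no pairing was used.

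Arrays were brought to a common 2% trimmed mean, the chip's 20th percentile was added and log2 taken. Control probe sets (66 a chip) were not tested. Genotypes were compared with limma 3.58.1 in R 4.3.3 (lmFit, eBayes with an intensity trend, two-sided). On simulated A-chip data with 100 probe sets changed by 1 on the log2 scale, 99 were recovered. These were drawn only from probe sets clear of the level for testing. Noise was set by intensity alone, and far fewer probe sets changed than were called in the real data. The result is thus not the power for weak or variable member probe sets. In lists and pairs the tested probe set of highest mean was used for a gene. Every member probe set is reported. For each related list the 3 largest called changes on each chip were named, a reading of the rule (written per list) taken after values were seen, and other genes only where stated. Members and lists were chosen with earlier results of these data known. Symbols come from the platform annotation, which can be old, and promoters from RefSeq (GRCm38.p6), where all 10 member genes had an entry. Alternatives covered scaling, offset, filter, variance trend, a replicate block, leaving out each array and, for pairs, the mean over a gene's probe sets; reading them for the list genes was chosen after seeing the data.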

Additional observations from a re-analysis of the deposited data

How the results depend on the processing

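Over 129 refits of single member probe sets, 116 kept their direction and call, 13 kept the direction but lost the call and 0 reversed. The lost calls concern Myh4 161545_r_at, Myl1 92541_at, Myl4 100828_at and Mylpf 92881_at, and the other 7 tested probe sets were called under every alternative in which they were tested. The number of member probe sets called was 9 of 15 with no filter, 8 of 8 with the filter at the 60th percentile and 10 with no variance trend. It was 7 to 11 when an array was left out, the lowest without wild-type replicate 2. Over all probe sets of the A chip the count was 3299, and 2127 to 3376 with an array left out, the lowest without wild-type replicate 2. The B chip gave 2189, and 1119 to 2598 with an array left out, the lowest without wild-type replicate 2. With the replicate number as a block, 11 member probe sets were called and 3368 and 2411 of all, and the block changed no member's call. The number of non-overlapping pairs, 7, became 8 to 11 with an array left out, where a lone array cannot overlap itself. Pair differences kept their direction in 99 of 108 refits and reversed in 9. With the offset at the 40th percentile, Myh3 minus Myh1 was 0.33, Myh7 minus Myh1 0.0050, Myh8 minus Myh1 0.079 and Myh8 minus Myh7 0.074. With an array left out, Myh3 minus Myh1 ran from -0.23 to 0.17, Myh3 minus Myh7 from -0.081 to 0.51, Myh7 minus Myh1 from -0.52 to 0.044 and Myh8 minus Myh7 from -0.38 to 0.28. The cause was not tested. With an array left out, the lone array of a genotype is assumed to vary like the others. Signals near the bottom of the chip (Myh2, Myh4 98488_at) and near the top (Myl1) limit those fold changes.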
